A study of Mus musculus with 15 samples.

Results

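The genes described here are 10 genes of macrophage fusion and of osteoclasts, the bone-resorbing giant cells that form when macrophage precursors fuse. They were taken by their symbols, with no measured value in the rule: Ocstamp, Dcstamp, Acp5, Atp6v0d2, Itgb3, Trem2, Tyrobp, Nfatc1, Tnfrsf11a and Calcr. All 10 were found among the 24054 genes listed, and all 10 passed the filter on low counts that kept 15905 genes for testing. Their RNA was measured by RNA-seq in whole lungs of 15 wild type female mice of the Balb strain, in 3 groups of 5. Lungs of the anti-IL-4Ra group came from mice sensitised by the intraperitoneal route to ovalbumin (OVA), the model allergen, challenged with an OVA aerosol and treated with 30 mg/kg of a monoclonal antibody against mouse IL-4Ra, the receptor chain through which both IL-4 and IL-13 signal. Lungs of the OVA group came from mice sensitised and challenged in the same way and given an isotype control antibody. Lungs of the saline group came from sham-sensitised mice given the isotype control antibody. The sources used here do not state the age, the dose of the isotype antibody or the days of treatment and collection.

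Macrophages fuse into multinucleated cells through surface proteins such as DC-STAMP and OC-STAMP, and IL-4, acting through IL-4Ra and the transcription factor STAT6, is a classical inducer of giant cells in macrophage cultures. In bone the same fusion proteins are induced by RANK ligand, which binds RANK (Tnfrsf11a) and, together with signals from ITAM adaptors such as DAP12 (Tyrobp), switches on the transcription factor NFATc1. The osteoclasts so formed make acid through a vacuolar proton pump, secrete tartrate-resistant acid phosphatase, attach through the vitronectin receptor and carry the calcitonin receptor. IL-4 is also known to block osteoclast formation driven by RANK ligand, and in the lung several of these genes, Acp5, Atp6v0d2 and Trem2 among them, are expressed by macrophages.

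Total expected counts per library were 12317805 to 16914475 in anti-IL-4Ra lungs, 10042825 to 14706131 in OVA lungs and 16774285 to 27570666 in saline lungs, and 3 counts in a library were worth 0.113 to 0.308 CPM (counts scaled to the same total in every library). The share of counts on Rn45s, the ribosomal RNA precursor, differed between the groups: it was 1.65 to 12.4% in anti-IL-4Ra lungs, 4.31 to 12.4% in OVA lungs and 1.19 to 2.88% in saline lungs. Markers of alveolar epithelium summed to 3760 to 12000 CPM in anti-IL-4Ra lungs, 3760 to 8370 CPM in OVA lungs and 10700 to 15000 CPM in saline lungs, with Sftpc the most abundant, so lung tissue was present in all libraries. Markers of cardiac muscle were present too, at 34.4 to 442 CPM in anti-IL-4Ra lungs, 111 to 1740 CPM in OVA lungs and 535 to 1960 CPM in saline lungs. In whole tissue, fewer cells of a type and less RNA per cell cannot be told apart.

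Promoter sequences were at hand for 4 of the 10 genes (Acp5, Trem2, Tnfrsf11a and Calcr), as 7 windows of 250 bases upstream of annotated starts in RefSeq (GRCm38.p6). The windows were searched on both strands for a STAT6 type site (TTC and GAA with any 4 bases between them), TGANTCA (AP-1 type), GAGGAA (PU.1) and TCATGTG (MITF), and no matches overlapped. In TGANTCA the middle base was free, which is wider than the AP-1 consensus. The windows with a match are shown, chosen after the search, because Acp5 and Trem2 are both genes that were higher after OVA and because these letters stand for factors of IL-4Ra signalling and of osteoclasts. Each is written 5' to 3' on the strand of its gene, from chr9:22130599-22130848 (minus strand) for Acp5 and chr17:48346151-48346400 (plus strand) for Trem2, with the matches in capitals.
Acp5: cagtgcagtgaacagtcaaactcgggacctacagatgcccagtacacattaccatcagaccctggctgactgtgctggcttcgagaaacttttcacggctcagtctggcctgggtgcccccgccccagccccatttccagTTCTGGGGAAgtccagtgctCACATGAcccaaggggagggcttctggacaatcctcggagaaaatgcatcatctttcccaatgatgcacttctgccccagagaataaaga
Trem2: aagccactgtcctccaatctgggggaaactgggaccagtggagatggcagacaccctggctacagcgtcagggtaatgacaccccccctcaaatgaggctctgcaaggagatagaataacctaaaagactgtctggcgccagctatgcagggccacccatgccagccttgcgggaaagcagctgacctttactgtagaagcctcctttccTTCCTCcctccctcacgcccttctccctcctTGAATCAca
In the Acp5 window the STAT6 type letters begin 110 bases upstream of the start and the MITF letters, on the other strand, begin 90 bases upstream. In the Trem2 window the PU.1 letters, on the other strand, begin 40 bases upstream. The AP-1 type letters, with A as the middle base, begin 9 bases upstream. Of 32851 mouse windows of the same length, 5.85% held the STAT6 type letters, 3.25% the MITF letters, 23.3% the PU.1 letters and 6.75% the AP-1 type letters. The other 2 Acp5 windows, the Tnfrsf11a window and both Calcr windows held none of them. A match describes letters, not a bound site.

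The fusion genes Ocstamp and Dcstamp had the largest fold changes of the 10 genes in OVA against saline and in anti-IL-4Ra against OVA. Both were close to the detection floor in saline lungs, were many-fold higher after OVA, and were much lower under anti-IL-4Ra than under the isotype antibody. Both passed the filter on low counts only through the OVA libraries, where they are high, so being tested at all was not independent of that level. Ocstamp encodes OC-STAMP, a membrane-spanning protein needed for fusion of osteoclasts and giant cells in mice. It had 0.661, 0.344, 0.666, 0.269 and 0.625 CPM in anti-IL-4Ra lungs, against 2.5, 4.13, 4.26, 8.07 and 5.44 CPM in OVA lungs and 0.0753, 0.0775, 0.252, 0.109 and 0.122 CPM in saline lungs. The groups did not overlap in any of the 3 comparisons: every OVA lung was above every anti-IL-4Ra lung, and every anti-IL-4Ra lung was above every saline lung. Over the 5 libraries of a group these levels rested on 38 counts in anti-IL-4Ra lungs, 317 counts in OVA lungs and 13 counts in saline lungs, so the saline level in particular is imprecise. OVA lungs were 37.3-fold above saline lungs (log2 fold change 5.22 ± 0.42 standard error (SE), 95% interval 4.33 to 6.11, adjusted p = 2.15e-06 by edgeR's quasi-likelihood test with Benjamini-Hochberg adjustment over all genes tested, as for every adjusted p below). In the ranking of all 15905 genes by this log2 fold change, Ocstamp was number 38 from the top.

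Dcstamp encodes DC-STAMP, the related membrane protein without which osteoclasts and foreign-body giant cells of mice do not fuse. It had 0.826, 1.1, 1.26, 0.538 and 0.625 CPM in anti-IL-4Ra lungs, against 3.41, 5.04, 2.30, 7.04 and 6.15 CPM in OVA lungs and 0.339, 0.155, 0.151, 0.544 and 0.366 CPM in saline lungs. All 5 OVA lungs were above all lungs of both other groups, while 4 of 5 anti-IL-4Ra lungs were above all saline lungs. The summed counts were 64 in anti-IL-4Ra lungs, 303 in OVA lungs and 32 in saline lungs. OVA lungs were 15.3-fold above saline lungs (log2 fold change 3.94 ± 0.41 SE, 95% interval 3.07 to 4.8, adjusted p = 1.75e-05).

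Under anti-IL-4Ra, Ocstamp fell to a mean of 0.513 ± 0.191 CPM, against 4.88 ± 2.07 CPM in OVA lungs (SD, n = 5 each). That is 10.5% of the OVA mean, with a log2 fold change of -3.23 ± 0.37 SE (95% interval -4.01 to -2.46, adjusted p = 0.000625). Dcstamp fell to a mean of 0.871 ± 0.309 CPM, against 4.79 ± 1.94 CPM in OVA lungs (SD, n = 5 each). That is 18.2% of the OVA mean, with a log2 fold change of -2.45 ± 0.37 SE (95% interval -3.24 to -1.66, adjusted p = 0.00479). These were the 2 called genes of the 10 in this comparison, both lower. Only 0.302% of all genes tested were called in it (0.163% lower), so calls were rare here. Ocstamp was number 4 and Dcstamp number 23 of 15905 genes when ordered by p. The OVA libraries enter this comparison and that with saline, so the sizes of the 2 contrasts are not independent of each other. Between anti-IL-4Ra and saline lungs both genes were tested only because the OVA libraries, where they are high, carried them past the filter on low counts: with these 2 groups fitted alone, the filter left them out. In the fit of all 3 groups, anti-IL-4Ra lungs were above saline lungs for Ocstamp (mean 0.513 CPM against 0.127 CPM in saline lungs, log2 fold change 1.99 ± 0.46 SE, adjusted p = 0.00645) and for Dcstamp (mean 0.871 CPM against 0.311 CPM in saline lungs, log2 fold change 1.49 ± 0.42 SE, adjusted p = 0.0179). With the log2 Rn45s share as a covariate these 2 differences from saline were not called, at log2 fold changes of 2.13 ± 0.59 SE for Ocstamp (adjusted p = 0.0732) and 1.28 ± 0.55 SE for Dcstamp (adjusted p = 0.224), while both calls against OVA and both calls of OVA against saline were kept. Dcstamp also lost its call against saline without anti-IL-4Ra replicate 3 (log2 fold change 1.31, adjusted p = 0.0549).

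**Figure D1:**
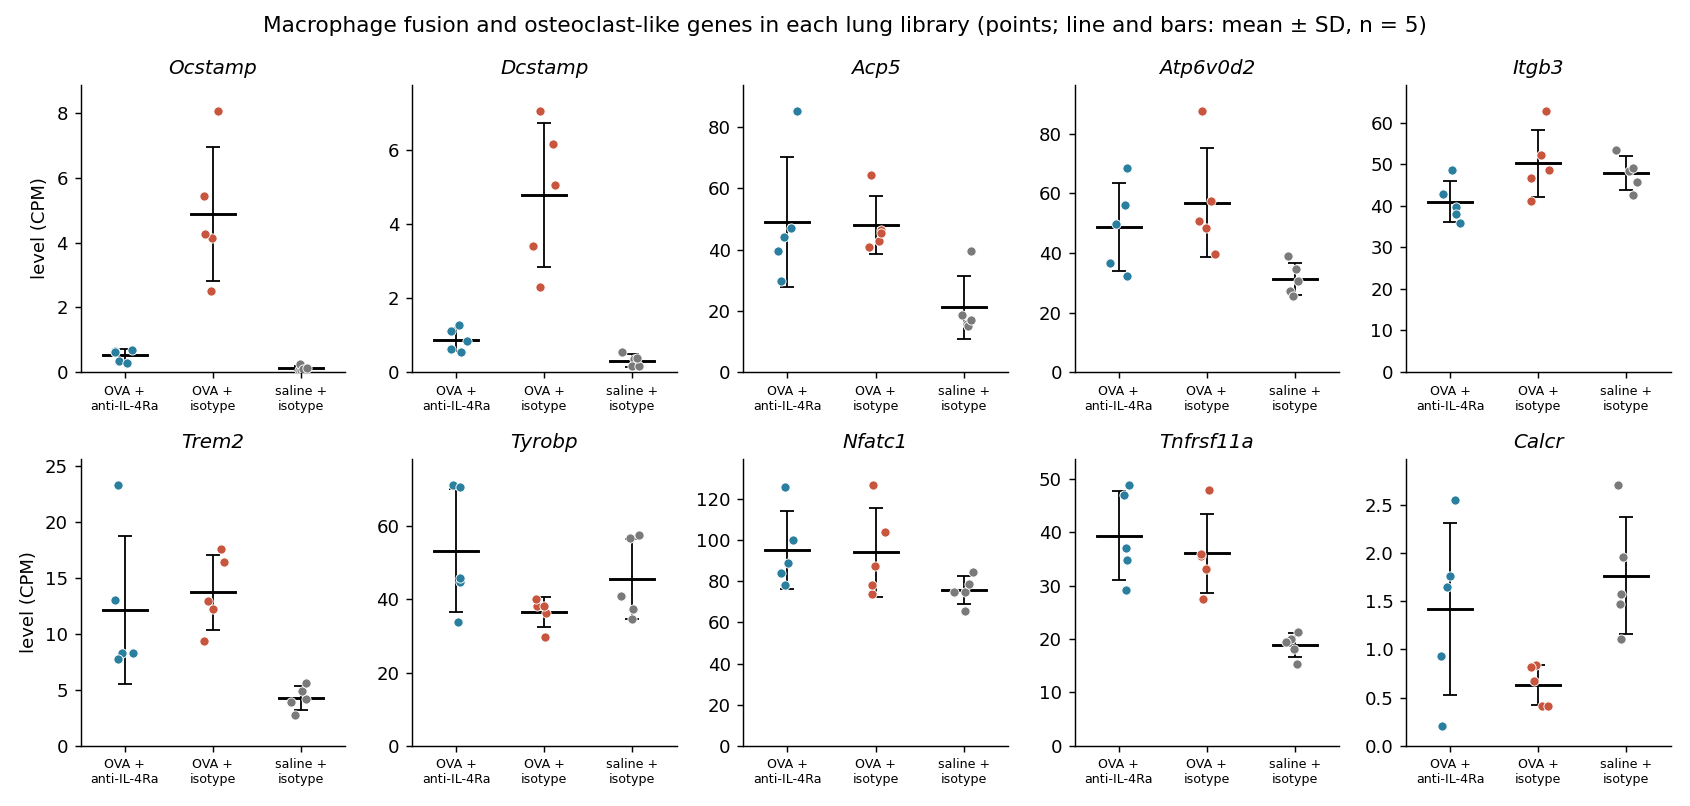
Level of each of the 10 genes (vertical axis, CPM, from 0) in every lung library (points), by group, with the group mean and SD (line and bars, n = 5 each). Ocstamp and Dcstamp are highest in OVA lungs (means 4.88 and 4.79 CPM, against under 1 CPM in the other groups), Acp5, Trem2 and Tnfrsf11a are high in both OVA-challenged groups, and Itgb3 differs little between groups.

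The acid phosphatase and the proton pump subunit were higher in both challenged groups, and neither moved detectably with the antibody. Acp5 encodes tartrate-resistant acid phosphatase (TRAP), the classical stain of osteoclasts, which alveolar macrophages also make. It had 44.2, 39.4, 47.2, 85.3 and 29.7 CPM in anti-IL-4Ra lungs, against 42.8, 64.4, 46.4, 45.4 and 40.8 CPM in OVA lungs and 39.4, 15.8, 14.9, 16.9 and 18.7 CPM in saline lungs. Saline replicate 1 stood far above the other 4 saline lungs and anti-IL-4Ra replicate 4 was the highest of all 15, so that anti-IL-4Ra and saline lungs overlapped, whereas every OVA lung was above every saline lung. Acp5 rose in OVA lungs against saline lungs (log2 fold change 1.18 ± 0.29 SE, adjusted p = 0.00580) and in anti-IL-4Ra lungs against saline lungs (1.21 ± 0.29 SE, adjusted p = 0.00772). With the log2 Rn45s share as a covariate neither was called, and the log2 fold changes were 0.44 ± 0.30 SE for OVA (adjusted p = 0.377) and 0.48 ± 0.29 SE for anti-IL-4Ra (adjusted p = 0.367). Between anti-IL-4Ra and OVA lungs the log2 fold change was 0.03 ± 0.29 SE, with a 95% interval of -0.58 to 0.65 and an adjusted p of 1, so the interval holds changes of either sign. Without anti-IL-4Ra replicate 4 it was -0.24.

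Atp6v0d2 encodes the d2 subunit of the vacuolar ATPase, an osteoclast form whose loss in mice impairs precursor fusion. It had 56.1, 68.7, 36.7, 32.3 and 49.7 CPM in anti-IL-4Ra lungs, against 48.5, 50.8, 57.6, 87.7 and 39.8 CPM in OVA lungs and 27.1, 34.5, 25.6, 30.6 and 38.9 CPM in saline lungs. All OVA lungs were above all saline lungs, with the lowest OVA lung just above the highest saline lung, and the anti-IL-4Ra lungs overlapped both. It rose in OVA lungs against saline lungs (log2 fold change 0.86 ± 0.22 SE, adjusted p = 0.00756). Anti-IL-4Ra lungs did not differ detectably from OVA lungs (-0.23 ± 0.22 SE, 95% interval -0.70 to 0.25, adjusted p = 1). The difference of anti-IL-4Ra from saline lungs was near the threshold (0.64 ± 0.22 SE, adjusted p = 0.0462) and lost its call under 14 of 23 alternatives. Atp6v0d1 encodes the widely expressed d1 subunit that d2 can take the place of, and it had 62.7 ± 6.79 CPM in anti-IL-4Ra lungs, 60.4 ± 7.05 CPM in OVA lungs and 71.6 ± 5.99 CPM in saline lungs (SD, n = 5 each). It was not called between OVA and saline lungs (log2 fold change -0.24 ± 0.11 SE, adjusted p = 0.0808). Per length of exon, Atp6v0d2 made up 33.4 ± 6.34% of the summed level of both d subunits in anti-IL-4Ra lungs, 37.7 ± 5.32% in OVA lungs and 22.4 ± 3.50% in saline lungs (SD, n = 5 each). The OVA range (33.9 to 47.1%) lay above the saline range (17.4 to 26.4%), and the anti-IL-4Ra range (25.1 to 40.3%) overlapped both.

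Trem2 was called higher in both challenged groups against saline, and its adaptor gene Tyrobp in neither. Trem2 encodes a lipid-sensing receptor of macrophages and osteoclasts that signals through DAP12. It had 8.26, 13, 7.79, 23.3 and 8.24 CPM in anti-IL-4Ra lungs, against 9.32, 12.9, 12.2, 17.6 and 16.4 CPM in OVA lungs and 4.14, 2.75, 4.90, 5.61 and 3.91 CPM in saline lungs. Every lung of both challenged groups was above every saline lung, and the challenged groups overlapped each other. Trem2 rose in OVA lungs against saline lungs (log2 fold change 1.69 ± 0.31 SE, adjusted p = 0.000808) and in anti-IL-4Ra lungs against saline lungs (1.51 ± 0.31 SE, adjusted p = 0.00280). Between anti-IL-4Ra and OVA lungs it was not called (-0.17 ± 0.30 SE, 95% interval -0.80 to 0.45, adjusted p = 1), and without anti-IL-4Ra replicate 4, the highest lung, this value was -0.53.

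Tyrobp encodes DAP12, the ITAM adaptor that TREM2 and other activating receptors of myeloid and natural killer cells use. It had 44.7, 71.3, 33.9, 70.6 and 45.7 CPM in anti-IL-4Ra lungs, against 29.7, 36.2, 38.3, 38.3 and 40.2 CPM in OVA lungs and 34.7, 37.3, 57.5, 56.8 and 40.9 CPM in saline lungs. The groups overlapped in all comparisons, with anti-IL-4Ra replicates 2 and 4 highest. None of the 3 log2 fold changes was called: -0.31 ± 0.20 SE for OVA against saline (adjusted p = 0.235), 0.54 ± 0.20 SE for anti-IL-4Ra against OVA (95% interval 0.11 to 0.97, unadjusted p = 0.0169, adjusted p = 0.621) and 0.23 ± 0.20 SE for anti-IL-4Ra against saline (adjusted p = 0.418). The 12 general macrophage markers summed to 1810 to 3630 CPM in anti-IL-4Ra lungs, 1300 to 1760 CPM in OVA lungs and 2520 to 3150 CPM in saline lungs, so their anti-IL-4Ra and OVA ranges did not overlap. The largest part of that sum was Lyz2, which rose in anti-IL-4Ra lungs against OVA lungs (log2 fold change 1.18 ± 0.22 SE, adjusted p = 0.0281), and 2 of the 12 markers were higher and none lower in that comparison. Over all genes tested, 0.138% were higher and 0.163% lower in that comparison. None of the 12 markers was at 0 in all libraries. Their part in the level of Tyrobp was not tested.

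Itgb3 and Calcr, surface receptors of the mature osteoclast, were not among the genes higher after OVA: Itgb3 was not called and Calcr was lower. Itgb3 encodes the beta3 integrin chain, which pairs with alpha v in the vitronectin receptor of osteoclasts and with alpha IIb on platelets. It had 42.9, 39.7, 38.1, 48.6 and 35.8 CPM in anti-IL-4Ra lungs, against 46.6, 62.8, 41.1, 48.7 and 52.2 CPM in OVA lungs and 48.4, 45.7, 49.1, 42.5 and 53.4 CPM in saline lungs. All groups overlapped and no comparison was called. The log2 fold change was 0.07 ± 0.12 SE for OVA against saline (95% interval -0.18 to 0.32, adjusted p = 0.661), -0.29 ± 0.12 SE for anti-IL-4Ra against OVA (unadjusted p = 0.0253, adjusted p = 0.695) and -0.22 ± 0.12 SE for anti-IL-4Ra against saline (adjusted p = 0.176). The 12 platelet markers, of which 11 were tested and none was at 0 in all libraries, summed to 31.6 to 49.0 CPM in anti-IL-4Ra lungs, 35.9 to 53.2 CPM in OVA lungs and 43.6 to 80.5 CPM in saline lungs, with Pf4 the most abundant. Among all genes tested, 17.8% were lower in OVA lungs and 12.7% in anti-IL-4Ra lungs against saline lungs. Of the platelet markers, 5 were lower and none higher in each challenged group against saline. Their part in the level of Itgb3 was not tested.

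Calcr encodes the calcitonin receptor, through which calcitonin halts resorption. It had 1.65, 2.55, 0.932, 0.202 and 1.76 CPM in anti-IL-4Ra lungs, against 0.834, 0.413, 0.675, 0.821 and 0.410 CPM in OVA lungs and 1.58, 2.71, 1.11, 1.96 and 1.47 CPM in saline lungs. Every OVA lung was below every saline lung, and the anti-IL-4Ra lungs ran from the lowest value of all to nearly the highest. Summed counts were 105 in anti-IL-4Ra lungs, 42 in OVA lungs and 194 in saline lungs. Calcr was the one gene of the 10 that fell in OVA lungs against saline lungs (log2 fold change -1.46 ± 0.47 SE, 95% interval -2.45 to -0.47, adjusted p = 0.0228). That call was lost without saline replicate 2 (adjusted p = 0.0549), OVA replicate 2 (0.0572) or OVA replicate 5 (0.0520), and with the log2 Rn45s share as a covariate (log2 fold change -0.43, adjusted p = 0.660). Anti-IL-4Ra lungs were not called against OVA lungs (1.14 ± 0.48 SE, unadjusted p = 0.0302, adjusted p = 0.742) or against saline lungs (-0.32 ± 0.43 SE, adjusted p = 0.603). Without anti-IL-4Ra replicate 4 the first of these was 1.44 (adjusted p = 0.146).

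The receptor RANK was higher in both challenged groups, while the transcription factor it acts through was not called. Tnfrsf11a encodes RANK, the receptor for RANK ligand on osteoclast precursors and dendritic cells. It had 48.9, 34.8, 47.0, 29.2 and 37.0 CPM in anti-IL-4Ra lungs, against 35.6, 33.2, 27.5, 36.0 and 47.9 CPM in OVA lungs and 20, 21.4, 15.4, 19.4 and 18.2 CPM in saline lungs. Every challenged lung was above every saline lung, and the challenged groups overlapped. Tnfrsf11a rose in OVA lungs against saline lungs (log2 fold change 0.93 ± 0.16 SE, adjusted p = 0.000687) and in anti-IL-4Ra lungs against saline lungs (1.06 ± 0.16 SE, adjusted p = 0.000469). Set against OVA lungs, anti-IL-4Ra lungs had a log2 fold change of 0.13 ± 0.16 SE (95% interval -0.22 to 0.47, adjusted p = 1). Over all genes tested, 19.3% were higher in OVA lungs and 13.9% in anti-IL-4Ra lungs against saline lungs. Of 10 dendritic cell markers, 5 were higher and none lower in each challenged group against saline. They summed to 196 to 252 CPM in anti-IL-4Ra lungs, 192 to 321 CPM in OVA lungs and 134 to 184 CPM in saline lungs, none was at 0 in all libraries, and their part in the level of Tnfrsf11a was not tested.

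Nfatc1 encodes the calcium-driven master transcription factor of osteoclast formation, also used by T cells and endocardium. It had 88.7, 84.0, 100, 126 and 78.1 CPM in anti-IL-4Ra lungs, against 104, 127, 73.8, 78.1 and 87.7 CPM in OVA lungs and 74.8, 65.7, 84.7, 74.8 and 78.9 CPM in saline lungs. The 3 groups overlapped. Its log2 fold change was 0.31 ± 0.16 SE for OVA against saline (95% interval -0.02 to 0.65, adjusted p = 0.130), 0.02 ± 0.16 SE for anti-IL-4Ra against OVA (95% interval -0.31 to 0.35, adjusted p = 1) and 0.33 ± 0.16 SE for anti-IL-4Ra against saline (adjusted p = 0.125). Markers of T cells summed to 139 to 289 CPM in anti-IL-4Ra lungs, 115 to 387 CPM in OVA lungs and 57.4 to 103 CPM in saline lungs, and 7 of 9 were higher and none lower in each challenged group against saline. Of 8 endothelial and endocardial markers, 7 were lower and none higher in each challenged group against saline. Beside these stand the shares over all genes tested: 19.3% higher and 17.8% lower for OVA, and 13.9% higher and 12.7% lower for anti-IL-4Ra. The part of either cell type in the level of Nfatc1 was not tested.

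Counted together, 6 of the 10 genes rose and 1 fell in OVA lungs against saline lungs, and the same 7 had groups that did not overlap. In that comparison 37.1% of all genes tested were called (19.3% higher and 17.8% lower), and 12.1% had every OVA lung above and 14.5% every OVA lung below every saline lung. In anti-IL-4Ra lungs against OVA lungs none rose, 2 fell and 8 were not called, beside 0.302% called among all genes tested (0.138% higher and 0.163% lower). Of the uncalled genes, Tyrobp (higher), Itgb3 (lower) and Calcr (higher) came first by p, at numbers 432, 580 and 647 of 15905 genes. No gene of the 10 had every anti-IL-4Ra lung above every OVA lung (0.509% of all genes tested), and 2 had every one below (0.66% of all genes tested). For Ocstamp and Dcstamp, the limit of the filter given above holds in both comparisons with OVA lungs too. In anti-IL-4Ra lungs against saline lungs 6 rose and none fell, Ocstamp and Dcstamp among them with the limit of the filter given above, beside 26.6% called among all genes tested (13.9% higher and 12.7% lower), and 3 (Ocstamp, Trem2 and Tnfrsf11a) had every anti-IL-4Ra lung above every saline lung, beside 9.53% of all genes. None had every one below, beside 10.3% of all genes. The median log2 fold change of the 10 genes was 0.90 for OVA against saline, -0.08 for anti-IL-4Ra against OVA and 0.85 for anti-IL-4Ra against saline, beside 0.02, 0 and 0.02 over all genes tested. With the log2 Rn45s share as a covariate, 752 of 15905 genes were called in OVA against saline, 3 of the 10 among them (Ocstamp, Dcstamp and Atp6v0d2). In anti-IL-4Ra against saline 373 genes were called with it, 2 of the 10 among them (Atp6v0d2 and Tnfrsf11a). In OVA against saline, Trem2 (log2 fold change 1.27 ± 0.41 SE with the covariate and 1.69 ± 0.31 SE without it, adjusted p = 0.0810 with it) and Tnfrsf11a (0.73 ± 0.23 SE with it and 0.93 ± 0.16 SE without it, adjusted p = 0.0783 with it) were no longer called, at folds nearer to those reported than was the case for Acp5. In anti-IL-4Ra against saline, Trem2 had 1.11 ± 0.38 SE with it (adjusted p = 0.142).

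**Figure D2:**
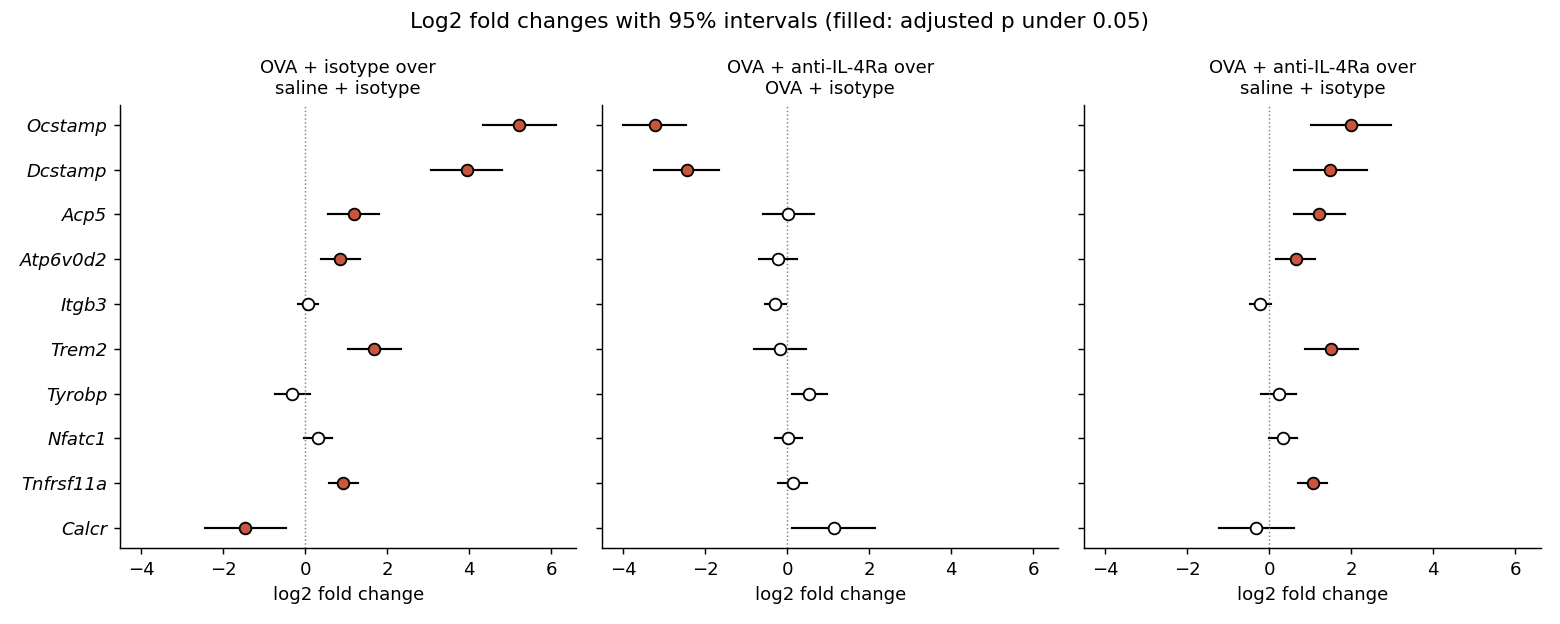
Log2 fold changes (horizontal axis) of the 10 genes with 95% intervals in the 3 comparisons, which share their libraries in pairs; filled points have an adjusted p under 0.05. Of the 10 genes, 7 are called in OVA against saline, beside 37.1% of all genes tested. In anti-IL-4Ra against OVA 2 are called (Ocstamp at -3.23 and Dcstamp at -2.45), beside 0.302%. In anti-IL-4Ra against saline 6 are called, beside 26.6%. Ocstamp and Dcstamp passed the filter on low counts only through the OVA libraries, where they are high.

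Per kilobase of exon, which allows levels of different genes to be set side by side, Tyrobp was the most abundant of the 10 genes, at 79.8 CPM per kilobase in anti-IL-4Ra lungs, 54.8 in OVA lungs and 68.1 in saline lungs. Acp5 (24.2 in anti-IL-4Ra lungs, 23.6 in OVA lungs and 10.4 in saline lungs) and Atp6v0d2 (17.9 in anti-IL-4Ra lungs, 21 in OVA lungs and 11.5 in saline lungs) came next in the challenged lungs. Nfatc1, Itgb3 and Tnfrsf11a lay between 3.16 and 12.8 CPM per kilobase in all groups. Trem2 had 2.45 CPM per kilobase in anti-IL-4Ra lungs, 2.77 in OVA lungs and 0.862 in saline lungs. Ocstamp had 0.140 CPM per kilobase in anti-IL-4Ra lungs, 1.33 in OVA lungs and 0.0348 in saline lungs, and Dcstamp had 0.327 in anti-IL-4Ra lungs, 1.80 in OVA lungs and 0.117 in saline lungs. Calcr had 0.363 CPM per kilobase in anti-IL-4Ra lungs, 0.161 in OVA lungs and 0.451 in saline lungs. In OVA lungs the fusion genes were above Calcr and below all the others, and in both other groups they were the lowest of the 10 genes.

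Related genes were taken from 9 lists of the pathways these 10 belong to, with 134 different genes tested. Their calls were not checked under the alternatives, such as the Rn45s covariate, which were examined only for the 10 genes and for counts over all genes. In OVA lungs against saline lungs 37 rose and 23 fell, which is 44.8% called beside 37.1% of all genes. In anti-IL-4Ra lungs against OVA lungs 1 rose and none fell (0.746% beside 0.302%), and in anti-IL-4Ra lungs against saline lungs 30 rose and 14 fell (32.8% beside 26.6%). Of 16 other macrophage fusion genes, 4 rose and 4 fell in OVA lungs against saline lungs (median log2 fold change 0.11). Adam8, a surface metalloprotease of myeloid cells, had 49.3, 29.7, 45.3, 46.0 and 30.2 CPM in anti-IL-4Ra lungs, against 48.0, 73.1, 88.1, 87.7 and 102 CPM in OVA lungs and 13.1, 21.3, 12, 14 and 12 CPM in saline lungs. It was higher in OVA lungs than in saline lungs (log2 fold change 2.46 ± 0.23 SE, adjusted p = 9.21e-06) and was not called between anti-IL-4Ra and OVA lungs (-0.99 ± 0.22 SE, adjusted p = 0.0774), where 1 anti-IL-4Ra lung was above 1 OVA lung. Cd200r1, an inhibitory receptor of myeloid cells, rose by 1.43 ± 0.19 SE on the log2 scale in OVA lungs against saline lungs (adjusted p = 0.000103), and P2rx7 and Cd200 rose by 0.37 and 0.36. The tetraspanin gene Cd81 (-0.67 ± 0.13 SE, adjusted p = 0.00160), the protease gene Mmp9 (-0.82 ± 0.20 SE, adjusted p = 0.00475) and the transglutaminase gene Tgm2 (-0.46 ± 0.15 SE, adjusted p = 0.0290) fell.

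Sirpa, the macrophage receptor for CD47, was the 1 related gene called between anti-IL-4Ra and OVA lungs, and it was higher. It had 311, 255, 264, 269 and 247 CPM in anti-IL-4Ra lungs, against 174, 176, 161, 185 and 156 CPM in OVA lungs and 170, 159, 173, 183 and 179 CPM in saline lungs. Every anti-IL-4Ra lung was above every lung of both other groups, whose ranges overlapped. The log2 fold change against OVA lungs was 0.66 ± 0.09 SE (adjusted p = 0.00185) and that against saline lungs was 0.64 ± 0.09 SE (adjusted p = 0.000291). Its direction is the opposite of that of Ocstamp and Dcstamp.

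Of 13 tested genes of the resorption machinery, 3 rose and 2 fell in OVA lungs against saline lungs, none was called between anti-IL-4Ra and OVA lungs, and 2 rose and 1 fell in anti-IL-4Ra lungs against saline lungs. Over all genes tested, 37.1% were called for OVA against saline and 26.6% for anti-IL-4Ra against saline. Ctsk, which encodes the collagen-cutting protease cathepsin K, had 65.9, 48.9, 42, 53.1 and 32.1 CPM in anti-IL-4Ra lungs, against 59.9, 77.0, 92.5, 124 and 58.3 CPM in OVA lungs and 14.1, 22.4, 12.4, 14.4 and 15 CPM in saline lungs. Both challenged groups were wholly above saline, with log2 fold changes of 1.62 ± 0.23 SE for anti-IL-4Ra (adjusted p = 0.000298) and 2.39 ± 0.24 SE for OVA (adjusted p = 1.59e-05). Anti-IL-4Ra against OVA was -0.77 ± 0.23 SE and not called (adjusted p = 0.363). Tcirg1, the a3 subunit of the osteoclast proton pump, rose in OVA lungs (0.71 ± 0.24 SE, adjusted p = 0.0271) and in anti-IL-4Ra lungs (0.84 ± 0.24 SE, adjusted p = 0.0164) against saline lungs, and the podosome scaffold gene Sh3pxd2a fell in OVA lungs (-0.54 ± 0.18 SE, adjusted p = 0.0307). The osteoclast receptor genes Oscar and Siglec15 were below the filter, with sums of 7 and 2 counts in anti-IL-4Ra lungs, 5 and 3 counts in OVA lungs and 3 and 0 counts in saline lungs. Of 10 osteoblast and bone stroma markers, 4 were tested, of which 2 were higher and 1 lower in each challenged group against saline and the most abundant was Col1a1, a collagen gene that fibroblasts also express.

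Of 22 other vacuolar ATPase subunits tested, 5 rose and 2 fell in OVA lungs against saline lungs (median log2 fold change 0.06), and 2 rose and 2 fell in anti-IL-4Ra lungs against saline lungs. The shares called over all genes tested were 37.1% for OVA against saline and 26.6% for anti-IL-4Ra against saline. Atp6v0a4, an a subunit known from kidney and airway epithelium, rose the most, with 13.8 ± 4.55 CPM in anti-IL-4Ra lungs, 23.1 ± 8.01 CPM in OVA lungs and 7.87 ± 0.997 CPM in saline lungs (SD, n = 5 each). Its log2 fold change was 1.55 ± 0.25 SE for OVA against saline (adjusted p = 0.000389) and 0.81 ± 0.25 SE for anti-IL-4Ra against saline (adjusted p = 0.0269). The accessory subunit gene Atp6ap1 (-0.36 ± 0.10 SE, adjusted p = 0.00993) and Atp6v0e2 (-0.48 ± 0.18 SE, adjusted p = 0.0416) fell in OVA lungs against saline lungs. Atp6v1e2 was listed at 0 in all 15 libraries.

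**Figure D3:**
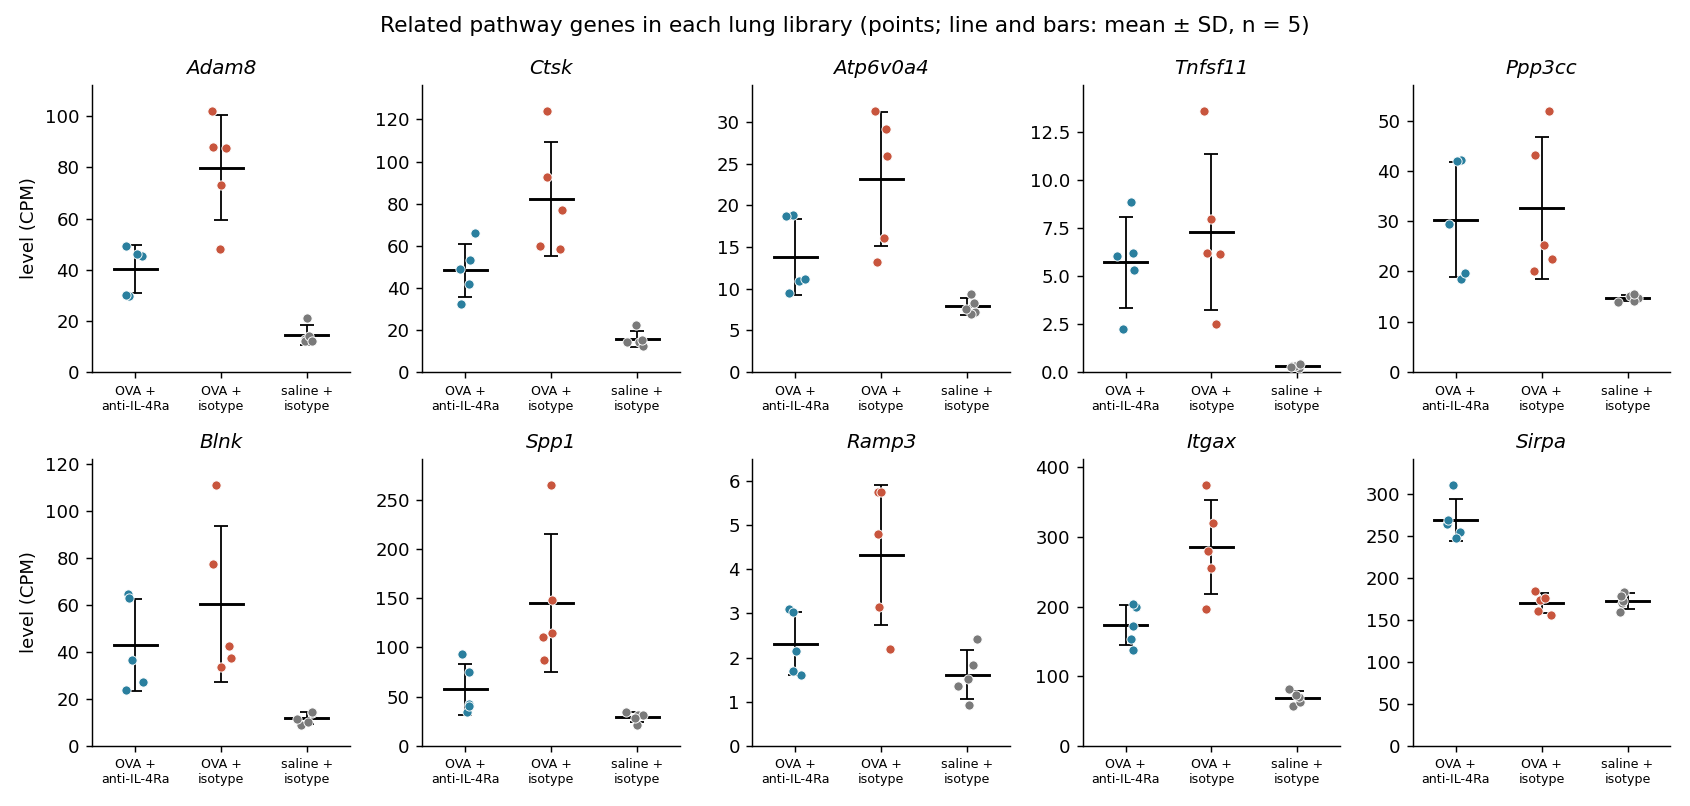
Level (vertical axis, CPM, from 0) of 10 related genes in every lung library (points), by group, with the group mean and SD (line and bars, n = 5 each). Ctsk, Tnfsf11 and Itgax are above saline in both challenged groups without overlap, and Sirpa is higher in anti-IL-4Ra lungs (247 to 311 CPM) than in OVA lungs (156 to 185 CPM).

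Of 25 tested genes of RANK and CSF1 signalling, 8 rose and 2 fell in OVA lungs against saline lungs and 7 rose and 2 fell in anti-IL-4Ra lungs against saline lungs (median log2 fold changes 0.22 and 0.32), with none called between anti-IL-4Ra and OVA lungs. Among all genes tested, 37.1% were called for OVA against saline and 26.6% for anti-IL-4Ra against saline. Tnfsf11, which encodes RANK ligand, had 8.84, 5.30, 6.06, 6.19 and 2.22 CPM in anti-IL-4Ra lungs, against 7.96, 13.6, 2.5, 6.22 and 6.15 CPM in OVA lungs and 0.339, 0.194, 0.303, 0.436 and 0.244 CPM in saline lungs. Every challenged lung was above every saline lung. The saline levels were close to the detection floor, where 3 counts were worth 0.113 to 0.183 CPM. Tnfsf11 passed the filter on low counts only through the challenged libraries, where it is high, so being tested was not independent of that level. The log2 fold change was 4.21 ± 0.47 SE for anti-IL-4Ra against saline (adjusted p = 7.59e-05) and 4.56 ± 0.47 SE for OVA against saline (adjusted p = 1.75e-05), and -0.35 ± 0.38 SE between anti-IL-4Ra and OVA lungs (adjusted p = 1). RANK ligand is made by activated T cells, among other cells, and the T cell markers given above were also higher in both challenged groups; their part was not tested. Tnfrsf11b, which encodes the decoy receptor osteoprotegerin, had 10 ± 1.43 CPM in anti-IL-4Ra lungs, 8.58 ± 1.97 CPM in OVA lungs and 8.03 ± 1.73 CPM in saline lungs (SD, n = 5 each) and was not called in any comparison. Irf8, a transcription factor that holds back osteoclast formation in mice, rose by 0.76 ± 0.26 SE (adjusted p = 0.0289) on the log2 scale in OVA lungs against saline lungs. These groups overlapped for Irf8, at 116, 172, 58.6, 62.1 and 66.9 CPM in OVA lungs against 56.1, 49.9, 61.8, 62.5 and 50 CPM in saline lungs. Nfkb2, of the noncanonical NF-kB pathway, rose by 0.96 ± 0.18 SE (adjusted p = 0.00111), whereas Jun (-0.86 ± 0.18 SE, adjusted p = 0.00193) and Rela (-0.58 ± 0.10 SE, adjusted p = 0.000514) fell.

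Of 17 tested ITAM adaptors, partner receptors and kinases, 8 rose and 3 fell in OVA lungs against saline lungs (median log2 fold change 0.55), and 8 rose and none fell in anti-IL-4Ra lungs against saline lungs (0.74). Calls over all genes tested were 37.1% for OVA against saline and 26.6% for anti-IL-4Ra against saline. The kinases Syk (1.25 ± 0.29 SE, adjusted p = 0.00389), Btk (1.66 ± 0.26 SE, adjusted p = 0.000279) and Tec (1.28 ± 0.22 SE, adjusted p = 0.000631) and the linker Blnk (2.35 ± 0.36 SE, adjusted p = 0.000264) rose in OVA lungs against saline lungs. Blnk and Btk are also B cell genes, and all 8 B cell markers were higher in that comparison, with sums of 304 to 1650 CPM in OVA lungs and 124 to 237 CPM in saline lungs; the part of B cells was not tested. The receptor genes Trem3 (-1.89 ± 0.40 SE, adjusted p = 0.00230), Trem1 (-1.66 ± 0.34 SE, adjusted p = 0.00174) and Sirpb1a (-1.07 ± 0.30 SE, adjusted p = 0.0116) fell, in the direction opposite to Trem2. Trem1 is abundant on neutrophils, and of 8 neutrophil markers 1 was higher and 4 were lower in OVA lungs against saline lungs, with sums of 165 to 222 CPM in OVA lungs and 158 to 340 CPM in saline lungs; their part was not tested. Among 14 genes of TREM2 ligands and lipid-laden macrophages, 4 rose and none fell in each challenged group against saline: Itgax, Cst7, Clec7a and Cd63. Itgax, the CD11c chain of alveolar macrophages and dendritic cells, had 173 ± 28.7 CPM in anti-IL-4Ra lungs, 285 ± 67.3 CPM in OVA lungs and 68.9 ± 9.30 CPM in saline lungs (SD, n = 5 each). Its log2 fold change was 1.33 ± 0.17 SE for anti-IL-4Ra against saline (adjusted p = 0.000120) and 2.05 ± 0.17 SE for OVA against saline (adjusted p = 3.11e-06).

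Of 11 other NFAT and calcineurin genes, 2 rose and 2 fell in OVA lungs against saline lungs, where 37.1% of all genes tested were called. Nfatc2 rose by 0.95 ± 0.20 SE (adjusted p = 0.00213) and the calcineurin subunit Ppp3cc by 1.14 ± 0.28 SE (adjusted p = 0.00528) on the log2 scale, while Rcan2 (-0.82 ± 0.30 SE, adjusted p = 0.0408) and Ppp3ca (-0.43 ± 0.14 SE, adjusted p = 0.0219) fell. Of 12 beta3 integrin partners and ligands, 3 rose and 6 fell in OVA lungs against saline lungs (median log2 fold change -0.48). Spp1, which encodes the ligand osteopontin, had 57.2 ± 25.6 CPM in anti-IL-4Ra lungs, 145 ± 70.5 CPM in OVA lungs and 29.2 ± 4.81 CPM in saline lungs (SD, n = 5 each). It was called for OVA against saline (2.31 ± 0.32 SE, adjusted p = 0.000117) and for anti-IL-4Ra against saline (0.97 ± 0.31 SE, adjusted p = 0.0298), and not for anti-IL-4Ra against OVA (-1.34 ± 0.31 SE, adjusted p = 0.107). Vtn, which encodes the ligand vitronectin, fell in OVA lungs against saline lungs (-1.61 ± 0.30 SE, adjusted p = 0.000970). Of 7 tested genes of the calcitonin receptor family, 1 rose and 3 fell in OVA lungs against saline lungs: Ramp3 rose (1.42 ± 0.32 SE, adjusted p = 0.00290), and Adm (-1.30 ± 0.19 SE, adjusted p = 0.000173), Ramp2 (-1.29 ± 0.34 SE, adjusted p = 0.00777) and Calcrl (-1.16 ± 0.40 SE, adjusted p = 0.0307), a peptide and a receptor pair of endothelium, fell, beside the endothelial markers given above. Ramp3 encodes a helper protein that turns the calcitonin receptor into an amylin receptor.

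For each of the 10 genes, the other genes most like it were found by the root mean square difference of log2 CPM, centred on each gene's own mean, over the 15 libraries. The gene nearest to Ocstamp was Dcstamp (difference 0.656, beside an SD of 1.90 for Ocstamp itself), followed by Ptgdr (0.697) and Msx3 (0.737). Ptgdr, a receptor for prostaglandin D2, had mean levels of 0.604 CPM in anti-IL-4Ra lungs, 3.20 CPM in OVA lungs and 0.167 CPM in saline lungs. The genes nearest to Dcstamp were Tdo2 (0.560), 9530059O14Rik (0.594) and Pdcd1lg2 (0.601), the last of which encodes PD-L2 and had 9.71 CPM in anti-IL-4Ra lungs, 33.4 CPM in OVA lungs and 1.74 CPM in saline lungs. Nearest to Atp6v0d2 were Ccl6 (0.152), Mrc1 (0.191) and Il33 (0.194). Mrc1, the mannose receptor of macrophages, had 201 CPM in anti-IL-4Ra lungs, 243 CPM in OVA lungs and 147 CPM in saline lungs. Nearest to Trem2 was Cfp (0.264), which encodes properdin, with 52.3 CPM in anti-IL-4Ra lungs, 48.2 CPM in OVA lungs and 19.1 CPM in saline lungs. Nearest to Acp5 were Kif5c (0.268), Myc (0.287) and Tm4sf5 (0.305), and nearest to Tnfrsf11a were Sass6 (0.165), Anln (0.199) and Lin9 (0.202), genes of centrioles and cell division. Nearest to Calcr was Gpr141 (0.310), with 7.24 CPM in anti-IL-4Ra lungs, 3.33 CPM in OVA lungs and 8.65 CPM in saline lungs. Itgb3 (Rab35, 0.124), Nfatc1 (Fbl, 0.0861) and Tyrobp (Mbl1, 0.191) were nearest to genes of similarly small spread. These likenesses are descriptions over 15 libraries, which share their depths and the 3 groups.

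**Figure D4:**
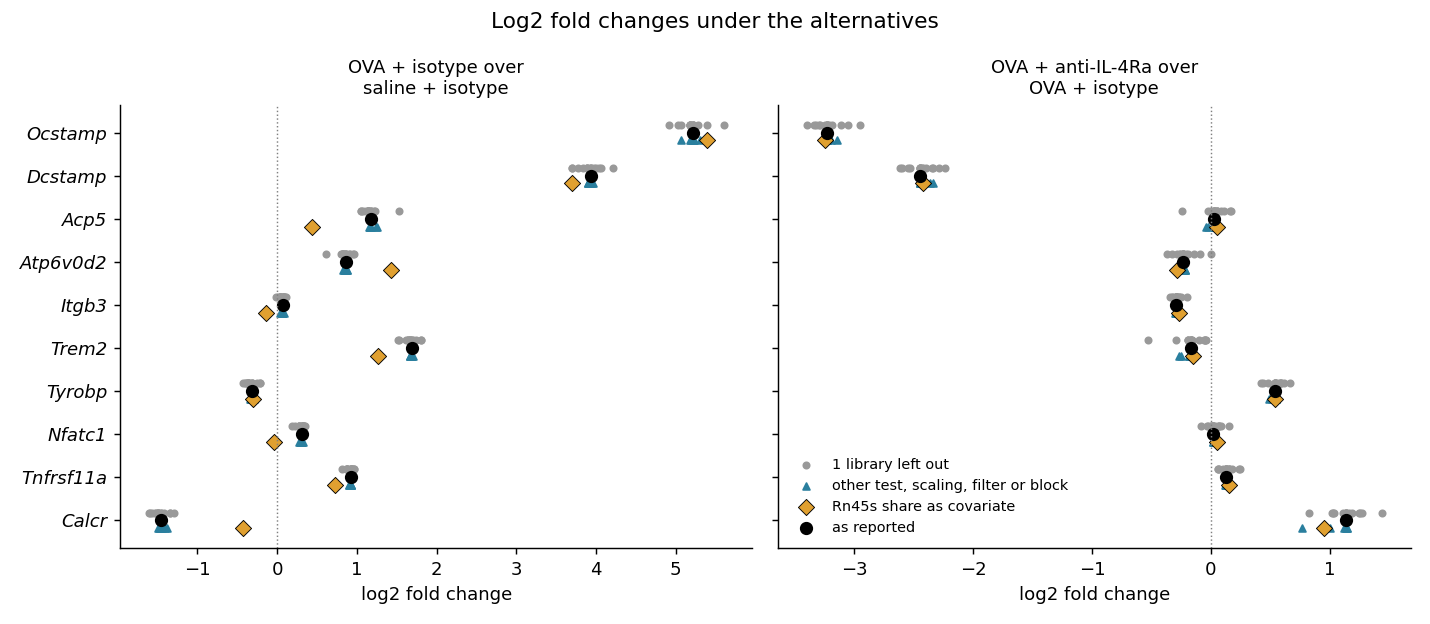
Log2 fold changes (horizontal axis) of the 10 genes as reported (black circles), with 1 library left out (grey circles), under another test, scaling, filter or replicate block (blue triangles) and with the log2 Rn45s share as a covariate (orange diamonds), for OVA over saline and anti-IL-4Ra over OVA. Ocstamp stays between 4.92 and 5.60 in the first and between -3.40 and -2.95 in the second, while Acp5 drops to 0.44 in the first with the covariate.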

How the data were processed

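The authors deposited unnormalized expected counts, with a row per symbol and a column per lung. The submitters' processing notes list RSEM 1.2.15 with Bowtie2 2.1.0 and a human build, although the symbols are those of mouse genes. Between 17 and 20% of values per library were not whole (by over 0.005), since RSEM shares reads among similar genes, and for Acp5, Atp6v0d2, Itgb3 and Tnfrsf11a this held in some libraries. The labels describe strand-specific libraries but not whether counting used strand, so Acp5 and Nfatc1 cannot be told apart from antisense genes that overlap them. Counts were rounded, filtered with filterByExpr, scaled by TMM and fitted for all 15 libraries together in edgeR 4.0.16 (R 4.3.3). Tests were two-sided and called at an adjusted p under 0.05. SE came from the F statistic, and CPM use TMM-scaled totals. Exon lengths are from GENCODE mouse release M21. The fit was tested on simulated data. Floors of 3 counts cover counting error only. Replicates are labelled as biological, and no 2 libraries agreed within sampling noise (chi-square per degree of freedom at least 10 over 30 pairs). All 10 genes are named. From each pathway list the called genes with the largest change are named, up to 4 higher and 3 lower, and the 3 nearest genes by likeness; 1 gene named by this rule is not reported here; Tnfrsf11b, Atp6v0d1, Oscar and Siglec15 were added after their values were seen. The genes and lists were chosen with earlier results of these data known. Of 294 list entries 293 were found. Alternatives were DESeq2 1.42.0, limma-voom (limma 3.58.1), other size factors, no filter, only the 2 groups compared, a replicate block, Rn45s as a covariate or outside the totals, and each library left out.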

Additional observations from a re-analysis of the deposited data

Results flagged for a closer look

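In 3 of the 30 sets of 5 libraries (10 genes in 3 groups), 1 library lay far from the other 4, by a gap over 0.71 of the whole range. Chance gives about 1 in 20 such sets. Acp5 in saline replicate 1 had 39.4 CPM, and the nearest saline lung had 18.7 CPM (gap 0.847 of the range); without this library the log2 fold change of OVA against saline was 1.53, beside 1.18 with it. Acp5 in OVA replicate 2 had 64.4 CPM, and the nearest OVA lung had 46.4 CPM (gap 0.763 of the range). Ocstamp in saline replicate 3 had 0.252 CPM, and the nearest saline lung had 0.122 CPM (gap 0.735 of the range), at 2 to 5 counts per saline library.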

How the results depend on the processing

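Of 23 alternatives, 15 left out 1 library each. Ocstamp and Dcstamp kept their calls for OVA against saline under all 23, and Ocstamp also for anti-IL-4Ra against OVA. With the log2 Rn45s share as a covariate 752 genes were called for OVA against saline (5898 without it), 3 of them among the 10, and 373 for anti-IL-4Ra against saline (4236 without it), 2 among the 10; the share differs between groups, so it and the groups cannot be told apart. Signs turned with it for Itgb3 (-0.14) and Nfatc1 (-0.04) in OVA against saline and for Calcr (0.52) in anti-IL-4Ra against saline, none of them called. DESeq2 called 132 genes for anti-IL-4Ra against OVA (48 by edgeR). When only the anti-IL-4Ra and saline groups were fitted, the filter on low counts left out Ocstamp and Dcstamp, so that alternative gave no value for them. Acp5 in anti-IL-4Ra against OVA was -0.04 with limma-voom and -0.02 with the replicate block; these causes were not tested. Same-numbered lungs did not deviate together (correlations -0.546 to 0.347, 2 of 15 over 0.1), so the numbers were not taken as pairs. With the replicate block 26 genes were called for anti-IL-4Ra against OVA, 1 of the 10 (Dcstamp had -2.34, adjusted p = 0.0647), 4625 for OVA against saline, 6 of the 10 (without Calcr), and 2891 for anti-IL-4Ra against saline, 5 of the 10 (without Atp6v0d2). Leaving out 1 library gave 4776 to 6619 genes and 6 to 7 of the 10 for OVA against saline, 32 to 61 genes and 2 of the 10 for anti-IL-4Ra against OVA, and 2844 to 4679 genes and 5 to 6 of the 10 for anti-IL-4Ra against saline. Uncalled values crossed 0 for Itgb3 (-0.02 to 0.11) in OVA against saline and for Acp5 (-0.24 to 0.17), Atp6v0d2 (-0.37 to 0) and Nfatc1 (-0.08 to 0.15) in anti-IL-4Ra against OVA. At 2 to 5 counts per library, the saline level of Ocstamp is limited by depth.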
